A study of Mus musculus with 6 samples.

Results

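The genes of DNA methylation and of histone methylation that were examined were Dnmt1, Dnmt3a, Dnmt3b, Dnmt3l, Tet1, Tet2, Kdm6b, Jarid2 and Ezh2. They were chosen by name with earlier results of these data known, 9 of 22350 protein-coding genes. Each was taken with 20 kb on either side of its mm9 gene bounds. pSmad2 ChIP-Seq was done in E14 TG2A mouse ES cells, a feeder-independent line, to ask how phosphorylated Smad2 is placed on the genome as Nodal/Activin signaling is raised or lowered. All cells were first held for 6 hours in 10 µM SB-431542 in KSR medium, which contains serum replacement and no LIF, and then for 18 hours in 25 ng/ml Activin, in a 1/5000 dilution of the DMSO vehicle (DMSO), or in 10 µM SB-431542 (SB). Each treatment had 1 ChIP library, made with a rabbit antibody to Smad2 phosphorylated at S465 and S467, and 1 input library, so that each p-value compares libraries and each interval covers counting error only.

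DNA methylation in mammals is copied at replication by Dnmt1 and laid down anew by Dnmt3a and Dnmt3b, whose activity is raised by the catalytically inactive cofactor Dnmt3l. Tet1 and Tet2 oxidise methylcytosine. Ezh2 is the catalytic subunit of Polycomb repressive complex PRC2, which methylates lysine 27 of histone H3, Jarid2 is a PRC2 partner abundant in ES cells, and Kdm6b removes that mark. Activin and Nodal receptors phosphorylate Smad2, which then enters the nucleus with Smad4, and SB-431542 blocks the kinase of these receptors.

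With tags of equal position and strand kept once, the ChIP libraries held 10537724 (Activin), 9713869 (DMSO) and 7805150 (SB) tags, and the inputs held 10895120, 11913742 and 9786787. The 3 peak lists, called by the authors with MACS for ChIP against the input of the same treatment, merged into 12197 regions. Of these, 65 lay in the windows of the 9 genes and are called sites here, numbered within each gene in the direction of transcription. A site was a median of 750 bp wide, with a range from 248 to 7205 bp. Every one of the 9 genes had at least 1 site, against 41.7% of all coding genes with a region of any list within 20 kb. The Activin list placed a site at 8 genes (23.7% of coding genes), the DMSO list at 8 (29.0%) and the SB list at 5 (25.0%). Dnmt3b was without a site in the Activin list, Ezh2 was without one in the DMSO list, and Dnmt3a, Dnmt3b, Dnmt3l and Tet2 were without one in the SB list. Long genes have more room for a site, so these shares are a description of the windows and not of the genes per length. Because the genes were chosen with earlier results known, the shares do not test whether such genes are bound more often than others.

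The sites were mostly inside the genes. Introns held 36 of the 65 and exons 7, while 7 lay upstream and 10 downstream. The windows of the genes with the most sites were themselves mostly gene. The gene took 192170 of 232170 bp for Jarid2 and 94549 of 134549 bp for Tet1. A share expected from length was not computed, so these places are a description. Only 5 sites, at 4 of the genes, were within 1 kb of a start site of the gene itself: 1 each at Dnmt3a, Tet1 and Kdm6b and 2 at Jarid2. No site was placed at a start of Dnmt1, Dnmt3b, Dnmt3l, Tet2 or Ezh2. With starts of neighbouring genes included, 7 of the 65 sites (10.8%) lay within 1 kb of a coding start, against 2320 of all 12197 regions (19%). Among start-site windows of all coding genes, 4.37% held a region of the Activin list, 5.46% one of the DMSO list and 6.14% one of the SB list.

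The DMSO list alone gave 24 sites (36.9%, against 34.8% of all regions), the Activin list alone 19 (29.2%, against 22.2%) and the SB list alone 11 (16.9%, against 21.3%). Together 54 of 65 sites (83.1%) were in 1 list only, near the 78.3% of all regions. Only 7 sites were in all 3 lists (10.8%, against 9.14% of all regions): Dnmt1 site 7, Tet1 sites 2 and 9, Kdm6b site 3, and Jarid2 sites 1, 18 and 25. A site in 1 list only held between 8 and 88 tags in the library that listed it. Being listed chose such a site for a high count in that library, so a difference from the other treatments there describes the choice.

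The sequences at the highest tag pileup of 6 sites are printed because the results below turn on them. They include the sites near an annotated start of Tet1, Dnmt3a and Kdm6b. The others are the strong Tet1 and Kdm6b sites inside the genes and the Jarid2 site with repeated tags. At Dnmt3a the start is internal to the gene, and the library-scaled pileup was highest in SB, which did not list the site. Each is 200 bases of the plus strand of mm9. Capitals mark CAGAC, a motif bound by Smad proteins, or AATNNACA, a motif of their partner Foxh1, on either strand. The stretches lie at chr10:62361013-62361212, chr10:62349580-62349779, chr12:3892016-3892215, chr11:69226535-69226734, chr11:69217492-69217691 and chr13:44964903-44965102, in the order printed.
Tet1 site 1: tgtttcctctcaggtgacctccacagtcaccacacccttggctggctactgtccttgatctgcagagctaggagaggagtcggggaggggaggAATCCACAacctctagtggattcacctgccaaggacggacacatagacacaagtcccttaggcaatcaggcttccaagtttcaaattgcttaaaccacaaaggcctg
Tet1 site 2: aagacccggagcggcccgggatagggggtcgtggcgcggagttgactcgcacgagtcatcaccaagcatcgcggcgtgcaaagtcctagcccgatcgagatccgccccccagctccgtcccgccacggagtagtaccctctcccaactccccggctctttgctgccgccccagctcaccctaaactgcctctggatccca
Dnmt3a site 1: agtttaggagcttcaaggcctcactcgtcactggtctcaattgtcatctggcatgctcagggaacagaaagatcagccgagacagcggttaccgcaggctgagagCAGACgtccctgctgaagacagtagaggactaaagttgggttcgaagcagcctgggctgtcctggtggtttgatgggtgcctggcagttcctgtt
Kdm6b site 2: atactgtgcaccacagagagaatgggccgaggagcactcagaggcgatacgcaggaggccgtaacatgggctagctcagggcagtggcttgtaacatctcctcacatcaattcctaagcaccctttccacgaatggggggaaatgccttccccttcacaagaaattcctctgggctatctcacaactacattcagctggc
Kdm6b site 3: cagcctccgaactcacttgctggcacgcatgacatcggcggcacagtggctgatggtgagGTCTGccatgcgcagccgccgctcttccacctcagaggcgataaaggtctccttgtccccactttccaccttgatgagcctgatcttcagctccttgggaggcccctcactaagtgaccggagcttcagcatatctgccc
Jarid2 site 18: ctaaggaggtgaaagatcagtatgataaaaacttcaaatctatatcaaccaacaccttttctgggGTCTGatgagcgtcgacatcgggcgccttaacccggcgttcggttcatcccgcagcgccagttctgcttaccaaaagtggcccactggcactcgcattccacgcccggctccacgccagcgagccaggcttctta
The Tet1 start-site stretch held the Foxh1 motif and no CAGAC, the Dnmt3a, Kdm6b site 3 and Jarid2 site 18 stretches held CAGAC, and the other two held neither. Over the sites, CAGAC was found in 32 of 65 such stretches (49.2%), against 44.9% of the same stretches at all 12197 regions. AATNNACA was found in 4 of 65 (6.15%), against 12.1%. These are matches of letters, and binding to them was not measured.

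Of the 9 genes, Jarid2 carried the most sites per length and the highest pSmad2 ChIP over input. Its window of 232170 bp (gene at chr13:44824843-45017012, plus strand) held 26 sites, or 11.2 per 100 kb, a density reached by 1.57% of coding genes. Over the whole window, ChIP over input was 1.69, 1.91 and 1.84 for Activin, DMSO and SB in that order, which holds for every triplet of values below, against medians of 1.02, 1.03 and 1.04 over coding genes with at least 100 input tags. The excess was not limited to the listed regions. With all 500 bp windows that touch a region taken out, the ratios were 1.57 (95% interval 1.46 to 1.68), 1.75 (1.64 to 1.87) and 1.71 (1.59 to 1.85), and 0.172%, 0.180% and 0.218% of coding genes were as high. By this measure Jarid2 stood near the top of all genes in each treatment, SB included. Within the gene bounds alone, listed regions included, the ratios were 1.70, 1.97 and 1.91. There 4.53%, 3.67% and 5.04% of the coding genes measured were as high, so the rank was less extreme. The ratio expected from GC content alone was 0.981, 0.976 and 0.978. Between treatments the window stood with Activin over DMSO at 0.832 (0.790 to 0.877) and SB over DMSO at 0.958 (0.907 to 1.01). The 5th and 95th percentiles of coding genes were 0.834 and 1.17 for the former ratio and 0.834 and 1.25 for the latter. In the input libraries this window gave 0.939 for Activin over DMSO and 0.995 for SB over DMSO.

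**Figure D1:**
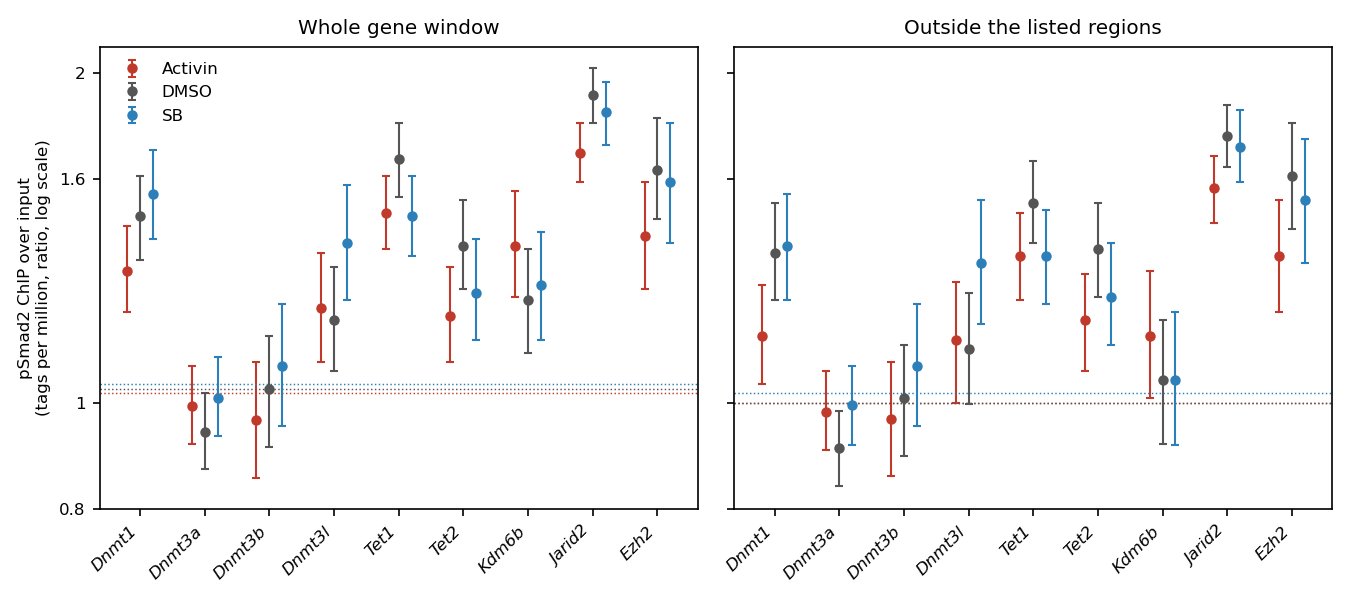
pSmad2 ChIP over input (ratio of library-scaled tags, log scale) in the window of each gene with 20 kb on either side (left) and in the same window outside the listed regions (right). Each point is 1 ChIP library over the input of its treatment, bars are 95% counting intervals and dotted lines are the medians of coding genes. The points of Jarid2, Tet1, Ezh2, Dnmt1, Tet2, Dnmt3l and Kdm6b lie above the median in all 3 treatments on both sides. Those of Kdm6b outside the listed regions lie close to it. Dnmt3a and Dnmt3b lie near 1.

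Jarid2 site 1, at the promoter, was in all 3 lists. The site lay at chr13:44824363-44825472 and its highest pileup was 201 bp past the first annotated start. It held 25, 33 and 31 ChIP tags and 10, 14 and 11 input tags. The libraries overlapped in their intervals, with Activin over DMSO at 0.698 (0.398 to 1.21) and SB over DMSO at 1.17 (0.692 to 1.97). Site 2, in the DMSO list alone, had its highest pileup 997 bp past another annotated start. It held 15, 30 and 11 ChIP tags over 7, 10 and 3 input tags. Activin over DMSO there was 0.461 (0.23 to 0.884) and SB over DMSO 0.456 (0.206 to 0.937). Neither passed (adjusted p of 0.0914 and 0.127, exact binomial test), while both did with all tags (0.00358 and 0.00872). The DMSO list chose site 2 for such a difference. Windows of 2 kb around each start were read without use of the lists. Such windows join where starts are close, and the joined window at the 5′ end of Jarid2 held 57, 77 and 55 ChIP tags against 29, 33 and 27 input tags. It took in part of site 2. Activin over DMSO in this window was 0.682 (0.476 to 0.974) at an adjusted p of 0.609 (exact binomial test). ChIP was above input at an adjusted p of 1.23e-05 in DMSO and 0.00154 in SB (one-sided exact binomial test, Benjamini-Hochberg over 28984 windows), and 0.0508 in Activin. With 500 bp on either side of each start it passed again in DMSO (0.00153, same exact test) and SB (0.00885), and with 2 kb in all 3 treatments. Of all windows, 1.97% (Activin), 3.09% (DMSO) and 4.62% (SB) passed that test.

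Further into Jarid2, site 25 and site 23 were broad regions near the 3′ end. Site 25, which lies past the Jarid2 end and within the neighbouring gene Dtnbp1, was in all lists with 74, 97 and 71 ChIP tags over 20, 36 and 31 input tags. Site 23, in an intron, was listed in Activin alone, yet its tags were 88, 78 and 78 over 41, 48 and 58, and ChIP exceeded input in DMSO (adjusted p = 0.000681, exact binomial test) and in SB (0.00657) as well. An excess over input was therefore held by all 3 ChIP libraries although 1 list named it.

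Jarid2 site 18 had the tallest pileup along the gene and rested on repeated tags. It lay in an intron, 140099 bp past the first start, at chr13:44964504-44965435. With 1 tag kept per position and strand it held 70, 80 and 70 ChIP tags and 24, 27 and 27 input tags. With all tags it held 1297, 1672 and 1441 ChIP tags but only 26, 43 and 42 input tags. ChIP over input rose with all tags from 3.02 to 43.8 (Activin), from 3.63 to 38.4 (DMSO) and from 3.25 to 37.0 (SB). At no other site did all tags exceed the kept tags by more than 2-fold in a ChIP library. Of the 32-base words in this site, 61.4% occurred elsewhere on the mm9 chromosomes, the highest share of the 65 sites. Activin over DMSO was 0.807 (0.577 to 1.13) with tags kept once and 0.760 (0.706 to 0.818) with all tags. The stretch printed above resembles ribosomal RNA sequence, which was not checked against a reference. The part of repeated sequence and of amplification in this pileup was not tested, nor was whether its tags come from this place in the genome.

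**Figure D2:**
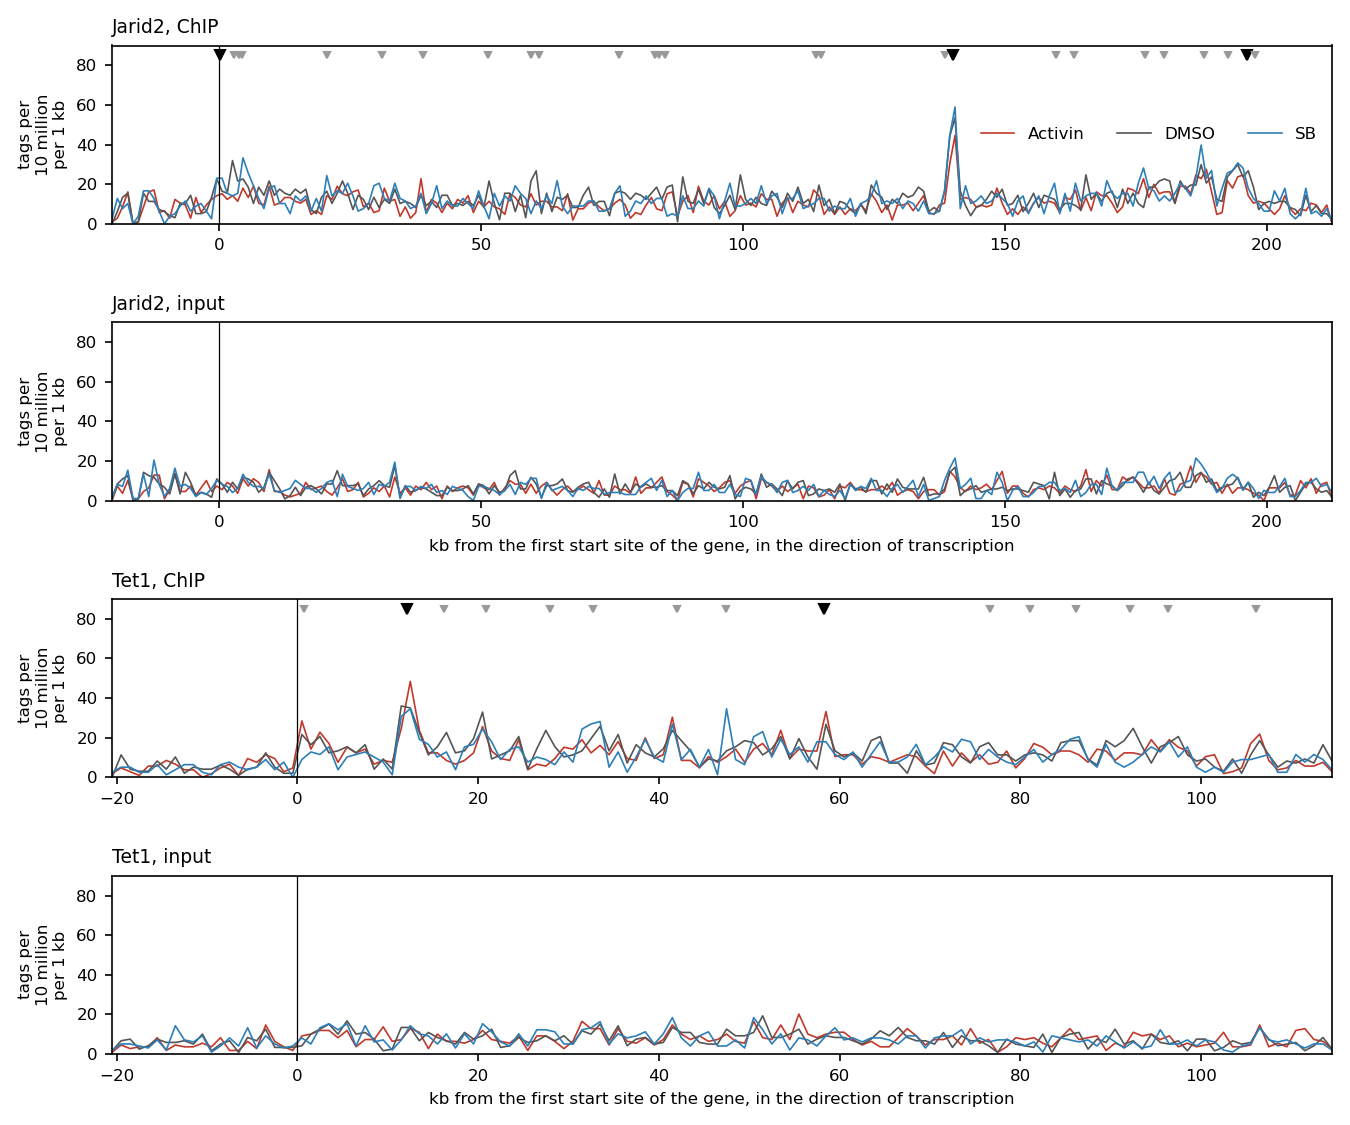
Tags per 10000000 library tags in steps of 1 kb along the windows of Jarid2 and Tet1, in ChIP and input libraries of each treatment, with tags kept once per position and strand. Triangles mark sites, large and black where a site was in all 3 lists. The ChIP lines run above the input lines over most of both genes, and the tallest ChIP peaks are at Jarid2 site 18 and Tet1 site 2.

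Ezh2 had 4 sites and a raised ratio along the gene. ChIP over input in its window was 1.42, 1.63 and 1.59. Outside the listed regions it was 1.36 (1.21 to 1.53), 1.61 (1.44 to 1.80) and 1.53 (1.34 to 1.74), which 2.02%, 0.614% and 1.22% of coding genes reached. Within the gene bounds alone it was 1.39, 1.73 and 1.49, which 12.5%, 6.58% and 14.3% reached. Activin over DMSO in the whole window was 0.821 (0.742 to 0.909), below the 5th percentile of coding genes. The input libraries gave 0.945 for the same ratio. The start windows of Ezh2 did not pass the test in any treatment. The one at the 5′ end had 33, 39 and 33 ChIP tags over 23, 26 and 18 input tags, with an adjusted p of 0.0569 in SB (exact binomial test). Site 2, in an intron and listed in Activin, held 15, 3 and 5 ChIP tags over 1, 4 and 6 input tags. Site 4, downstream of the gene, held 16, 7 and 9 over 2, 2 and 2. Site 3, also downstream, was listed in SB with 18, 23 and 30 tags over 13, 15 and 8.

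Kdm6b, the demethylase of lysine 27 of histone H3, had 4 sites in a window of 55168 bp, or 7.25 per 100 kb, a density that 4.38% of genes reached. The promoter site was listed in Activin alone. Site 2 (chr11:69225979-69228156), with its pileup 542 bp past the start, held 65 ChIP tags in Activin against 37 in DMSO and 33 in SB, while the inputs held 35, 41 and 44. Against input, DMSO (adjusted p = 0.458, exact binomial test) and SB (0.812), which did not list the site, did not pass. Activin over DMSO was 1.62 (1.07 to 2.49). In the start window, chosen without the lists, Activin had 61 ChIP tags over 31 input tags (adjusted p = 0.0373, exact binomial test), DMSO 34 over 38 and SB 30 over 39. The Activin call did not hold with 500 bp (adjusted p = 0.152, exact binomial test) or 2 kb (0.0772) on either side. The direct comparison of Activin with DMSO there gave a ratio of 1.65 (1.07 to 2.60) at an adjusted p of 0.542, so the difference between treatments was not shown at this depth.

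Kdm6b site 3 lay in an exon 9585 bp past the start and was in all 3 lists. It held 104, 84 and 112 ChIP tags over 39, 46 and 42 input tags. SB over DMSO was 1.66 (1.24 to 2.23; adjusted p = 0.0168, exact binomial test) and Activin over SB was 0.688 (0.522 to 0.906; adjusted p = 0.0429). The site was 60.8% GC, and outside the listed regions windows of that GC content gave SB over DMSO of 1.36 and Activin over SB of 0.727. With the counts scaled by GC content the adjusted p was 0.380 and 0.899, so neither call held. Site 1, upstream at 5140 bp, was in the Activin and DMSO lists with 60, 64 and 40 tags over 27, 27 and 35. Site 4 lies at the start of the neighbouring gene Tmem88. Outside the listed regions the Kdm6b window was near the level of other genes, at 1.15, 1.05 and 1.05.

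Tet1 came second to Jarid2 in number of sites. Its window of 134549 bp (gene at chr10:62267318-62361866, minus strand) held 15 sites, or 11.1 per 100 kb, a density that 1.59% of coding genes reached. ChIP over input was 1.49, 1.67 and 1.48 over the window. Outside the regions it was 1.36 (1.24 to 1.49), 1.52 (1.40 to 1.66) and 1.36 (1.23 to 1.50), which 2.14%, 1.30% and 5.44% of genes reached. Within the gene bounds alone it was 1.54, 1.77 and 1.58, which 7.35%, 5.92% and 10.9% reached.

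In the start window of Tet1 the pSmad2 ChIP was above input in Activin and DMSO and did not pass in SB, while the direct difference between Activin and SB did not pass. Site 1 (chr10:62360729-62361416), with its pileup 753 bp past the start, held 30, 20 and 7 ChIP tags over 8, 3 and 5 input tags. Scaled to 10000000 library tags these were 28.5, 20.6 and 8.97. Activin over DMSO was 1.38 (0.760 to 2.57), SB over DMSO 0.436 (0.156 to 1.07) and Activin over SB 3.17 (1.37 to 8.56). Being listed in Activin and DMSO and not in SB chose the site for that difference, so the start window, which did not use the lists, was read beside it. It held 33, 24 and 8 ChIP tags over 11, 9 and 13 input tags. Activin (adjusted p = 0.0267, exact binomial test) and DMSO (0.0387) were above input and SB was at 0.772 of input (0.277 to 2.01). The direct test of Activin against SB in this window gave 3.06 (1.38 to 7.66) with an adjusted p of 0.0669, above the threshold of 0.05. With all tags this window gave an adjusted p of 0.0138 for Activin against SB by the exact binomial test, while DMSO was no longer above input (0.137). The tags lay past the start and not over it: 500 bp on either side of the start held 2, 3 and 1 ChIP tags over 4, 4 and 5 input tags. With 2 kb on either side, Activin (adjusted p = 0.0912, exact binomial test) and DMSO (0.151) did not pass. Windows of the GC content of site 1 outside the listed regions gave Activin over SB of 0.999.

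**Figure D3:**
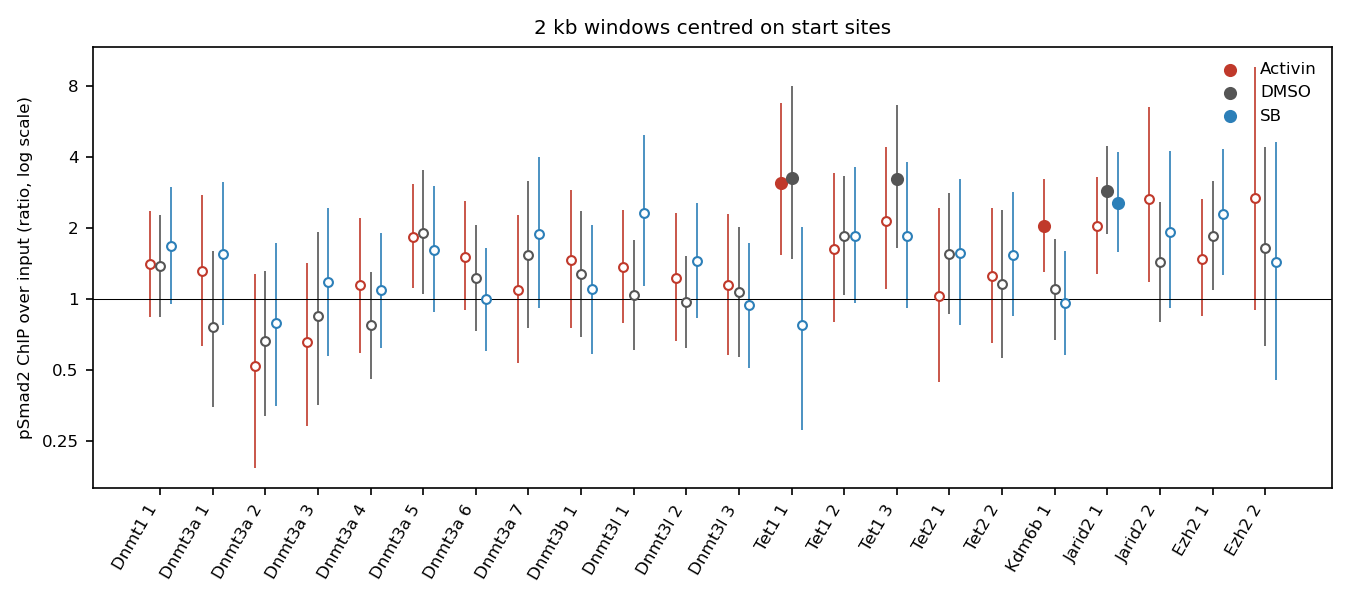
pSmad2 ChIP over input (ratio, log scale) in the 22 windows of 1 kb on either side of the start sites of the 9 genes, numbered along each gene. Bars are 95% counting intervals, filled points passed the test against input (adjusted p under 0.05) and open points did not. The filled points are at Tet1, Kdm6b and Jarid2.

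Inside Tet1, site 2 was the strongest. It lay in an intron, 12186 bp past the first start and 6918 bp upstream of another annotated start of Tet1. It held 93, 77 and 59 ChIP tags over 29, 34 and 23 input tags, or 88.3, 79.3 and 75.6 per 10000000 library tags. No difference between treatments passed there, with Activin over SB at 1.17 (0.834 to 1.65) and SB over DMSO at 0.954 (0.668 to 1.36). Site 9, also intronic and in all lists, held 44, 29 and 26 over 19, 18 and 10. A start window inside the gene, window 3, was above input in DMSO with 34 tags over 13 (adjusted p = 0.00691, exact binomial test), while Activin had 29 over 14 and SB 22 over 15. Site 5 was listed in DMSO alone with 4, 19 and 4 tags, and site 8 in SB alone with 11, 14 and 28. Activin over SB at site 8 was 0.291 (0.131 to 0.603), a difference for which the SB list chose the site. At site 8 the inputs were 11, 17 and 4, so the SB input was also the lowest.

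Tet2 had 3 sites with few tags. Site 1, upstream by 2701 bp, was listed in Activin with 14 ChIP tags against 3 in DMSO and 1 in SB, over 2, 10 and 4 input tags. Activin over SB was 10.4 with an interval of 1.58 to 438, at a site that the Activin list chose. The interval rests on 1 SB tag. Site 2, intronic and listed in DMSO, held 13, 19 and 18 over 11, 8 and 12. Its first start window held 13, 29 and 20 ChIP tags over 13, 23 and 16 input tags, or ratios of 1.03, 1.55 and 1.57, and passed in no treatment. In the whole window the ratio was 1.20, 1.39 and 1.26. Outside the listed regions it was 1.19 (1.07 to 1.31), 1.38 (1.25 to 1.52) and 1.25 (1.13 to 1.40), which 12.4%, 4.15% and 12.8% of coding genes reached. Within the gene bounds alone it was 1.21, 1.54 and 1.35, which 24.7%, 11.2% and 22.2% reached.

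The DNA methyltransferases and their cofactor had no site at the first start of the gene. Dnmt1, on the minus strand of chromosome 9, had 7 sites in 85668 bp, with a window ratio of 1.32, 1.48 and 1.55. Outside the listed regions it was 1.15 (1.04 to 1.28), 1.37 (1.24 to 1.52) and 1.39 (1.24 to 1.55), which 17.1%, 4.38% and 4.48% of coding genes reached. Within the gene bounds alone it was 1.22, 1.45 and 1.46, which 24.2%, 14.7% and 15.9% reached. Only site 7 was in all lists, and it lay 14358 bp past the end of Dnmt1 in a region 7205 bp wide, where 181, 177 and 175 ChIP tags stood over 78, 107 and 115 input tags. Site 1 is within the upstream neighbour S1pr2. Site 4, intronic and listed in Activin, held 43, 33 and 20 tags over 22, 28 and 19. Site 5, intronic and listed in DMSO, held 4, 13 and 0, and SB over DMSO had an upper 95% limit of 0.408 at this site, which the DMSO list chose. The start window held 38, 37 and 32 ChIP tags over 28, 33 and 24 and passed in no treatment.

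Dnmt3a had 3 sites, and its window ratio was 0.993, 0.941 and 1.01, the level of the median gene. The start-site one, site 1, was not at the first start but at an annotated start 85589 bp inside the gene. It was listed in Activin with 34, 21 and 21 ChIP tags over 18, 21 and 16 input tags, and Activin over DMSO was 1.49 (0.842 to 2.71). The window over that start held 46, 31 and 27 tags over 26, 20 and 21 and passed in no treatment (adjusted p of 0.212, 0.240 and 0.407, exact binomial test). Sites 2 and 3, in an exon at the 3′ end, were listed in DMSO with 9, 20 and 14 tags and with 4, 16 and 3.

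Dnmt3b had the least. Its 1 site, intronic and listed in DMSO, held 0, 8 and 4 ChIP tags over 3, 0 and 3 input tags. Of its 32-base words 31.8% occurred elsewhere in mm9. The start window held 24, 24 and 21 ChIP tags over 17, 23 and 24 input tags, and the ratio over the whole window was 0.964, 1.03 and 1.08. Dnmt3l had 2 sites upstream of the gene. Site 1, at 13272 bp, was in the Activin and DMSO lists with 58, 48 and 38 ChIP tags over 19, 29 and 26. Site 2, within the neighbour Aire at 4794 bp, was listed in Activin with 35, 32 and 39 over 23, 28 and 26. Neither was at the promoter.

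**Figure D4:**
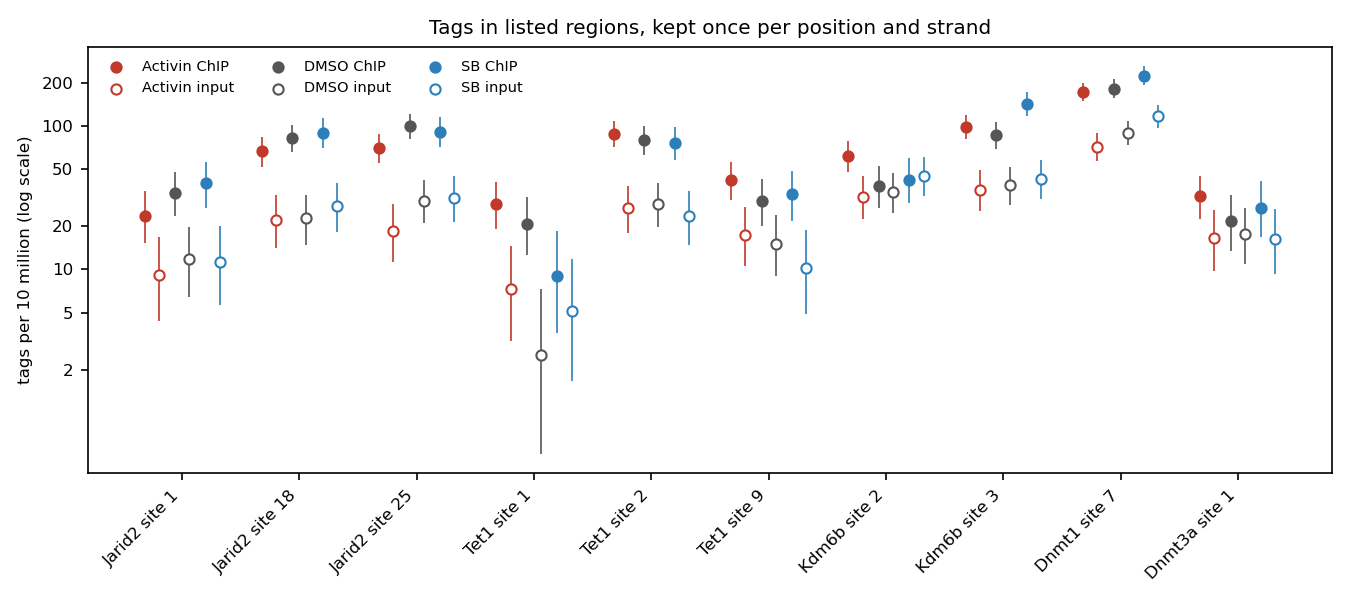
Tags per 10000000 library tags (log scale) in 10 sites, for ChIP (filled) and input (open) of each treatment, with 95% counting intervals. In the 7 sites that all 3 lists hold, ChIP lies above input in each treatment, and at Tet1 site 1 the SB point lies near its input. The lists were called for ChIP above input and the SB list does not hold Tet1 site 1, so both are descriptions.

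Over all 65 sites, the Activin ChIP was above its input at 27, the DMSO ChIP at 37 and the SB ChIP at 29, against 40.2%, 56.0% and 40.3% of all regions. Since the lists were called for that excess, these counts are a description. The median log2 ratio over the sites was 1.00, 1.35 and 0.89, against 1.03, 1.32 and 1.06 over all regions. A site in 1 list can be asked for an excess in the libraries that did not list it. Of the 19 sites in the Activin list alone, 7 were above input in another treatment, against 18.6% of such regions over the genome. Of the 24 in the DMSO list alone it was 5 (10.5%), and of the 11 in the SB list alone it was 2 (22.0%).

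Differences between treatments were few. Activin and DMSO differed at 3 of 65 sites, all lower in Activin, namely Dnmt3b site 1, Tet1 site 5 and Jarid2 site 8 (2.52% of all regions were higher and 7.16% lower). SB and DMSO differed at 4, of which Dnmt1 site 5 and Jarid2 sites 8 and 9 were lower in SB and Kdm6b site 3 was higher (5.27% of regions higher and 3.35% lower). Activin and SB differed at 6, with Tet1 site 1 and Tet2 site 1 higher in Activin, and Tet1 site 8, Jarid2 site 4, Kdm6b site 3 and Ezh2 site 3 lower (4.88% of regions higher and 12.8% lower). Of the 11 sites concerned, 9 were in 1 list only, where the list chose the difference, and Tet1 site 1 was in the Activin and DMSO lists and not in SB. The remaining one, Kdm6b site 3, was in all lists, and its calls were lost with GC scaling. The call of Jarid2 site 9 between SB and DMSO was lost with GC scaling too. Median log2 ratios were -0.31 for Activin over DMSO, -0.07 for SB over DMSO and -0.26 for Activin over SB, against -0.30, -0.09 and -0.28 over all regions. In the 22 start windows, 0 differences between treatments passed the exact binomial test, against 0.0380% (Activin and DMSO), 0.286% (SB and DMSO) and 3.08% (Activin and SB) of all windows.

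**Figure D5:**
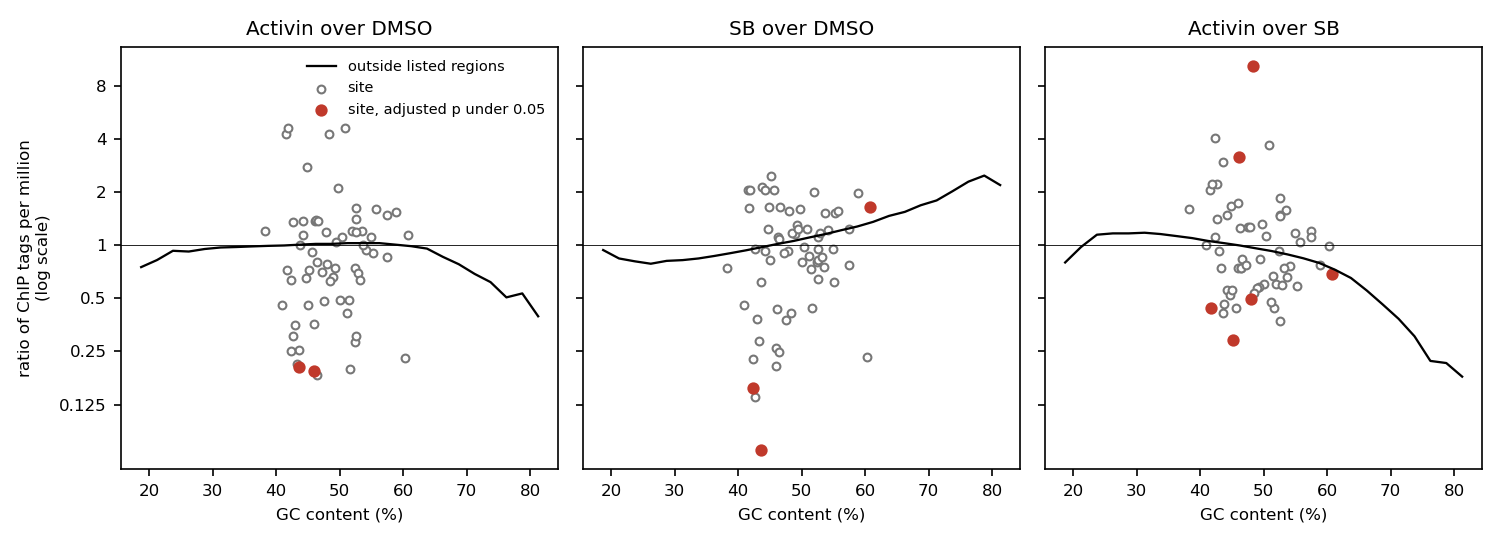
Ratio of library-scaled ChIP tags between treatments (log scale) against GC content at the 65 sites (points, red where the adjusted p was under 0.05) and in 500 bp windows outside the listed regions (line). Sites with no tags in a library are not drawn. The line rises with GC content for SB over DMSO and falls for Activin over SB, and Kdm6b site 3 lies near it.

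In steps of 200 bp, 8 different bins of the 9 gene windows passed the test of ChIP against input, in 11 calls over the 3 treatments, and all were inside listed regions. Of all bins with at least 8 tags, 0.592% (Activin), 0.852% (DMSO) and 1.15% (SB) passed. Jarid2 had 3 of these bins. A pair lay at site 18, the site with repeated tags, and gave 5 of the 11 calls, and the other bin passed in DMSO at the promoter with 11 ChIP tags and 0 input tags. Tet1 had 1 bin in Activin at site 2, with 16 tags over 0, and 1 in DMSO at site 1, past the start, with 15 over 2. Dnmt1 had 1 and Kdm6b had 2, all in SB, at Dnmt1 site 7 and Kdm6b site 3.

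Among the 78 other genes of the 12 lists of methylation enzymes, readers and complex partners, 58 had a region within 20 kb and 30 had one at a start of their own. Of all coding genes, 41.7% had a region within 20 kb, but these lists too were chosen with earlier results of the data known. The share of all coding genes with a region at a start of their own was not computed. By list, the others with a region within 20 kb were 2 of 3 for DNA methyltransferases and 4 of 7 for DNA demethylation. The counts were 2 of 6 for methyl-CpG readers, 7 of 9 for PRC2 and 0 of 1 for H3K27 demethylases. They were 9 of 12 and 6 of 6 for H3K4 methyltransferases and demethylases, 6 of 7 and 7 of 8 for those of H3K9, 6 of 7 for H3K36 enzymes, 4 of 4 for H3K79 and H4K20 enzymes and 5 of 8 for arginine methyltransferases. No difference between lists was tested. Their 215 sites differed between Activin and DMSO at 15 (3 higher, 12 lower), where 2.52% of all regions were higher and 7.16% lower. Between SB and DMSO they differed at 12 (11 higher, 1 lower), where 5.27% of all regions were higher and 3.35% lower. Between Activin and SB they differed at 33 (4 higher, 29 lower), where 4.88% of all regions were higher and 12.8% lower. At the start of Uhrf1, the partner that brings Dnmt1 to hemimethylated DNA, the ChIP tags were 33, 72 and 73 over 39, 50 and 32 input tags, and Activin over DMSO was 0.423 (0.271 to 0.646). This region was in the DMSO and SB lists and not in the Activin list. At the start of Eed, a core PRC2 subunit, they were 36, 30 and 51 over 24, 25 and 22, and SB over DMSO was 2.12 (1.32 to 3.44). It was in the SB list alone, so that for both genes the lists chose the difference. Regions at starts were also called different between SB and DMSO at Nsd1, Dot1l, Kdm5a and Rbbp7, and between Activin and SB at Uhrf1, Nsd1, Mbd3, Kdm4b and Mll5. No ratio at these starts was scaled by GC content.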

How the data were processed

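pSmad2 ChIP and input of 3 treatments were analysed, 1 library each. The authors aligned 35 bp tags to mm9 and called peaks with MACS against input. The deposited values are tag positions, counted here per region, and peak lists of a position and a tag count. Sources used here give neither the aligner nor the version of MACS. Tags of equal position and strand were kept once (19.9 to 24.6% of ChIP tags shared one) and taken at the middle of a 200 bp fragment. Peak bounds, which the lists do not hold, were rebuilt from the tags by the rules of MACS; 84.8 to 88.1% of listed counts came back within 10%. Counts were compared by exact binomial tests given library totals, with Benjamini-Hochberg adjustment over all regions, windows or bins (threshold 0.05, Python 3.11.15, scipy 1.17.1), and intervals are 95% Clopper-Pearson. Genes and starts are from GENCODE on the same build. The tests between ChIP libraries were checked on counts simulated with counting error only. That check cannot cover variation between replicate libraries or with GC content. The members and gene lists were chosen with earlier results of these data known. Named genes are all 9 members, and other listed genes with a differing region at a start, at most 5 per comparison by smallest p. Alternatives covered duplicates, scaling, GC content, thresholds, widths and flanks, and gene-window alternatives were chosen after seeing the data.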

Additional observations from a re-analysis of the deposited data

How the results depend on the processing

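With all tags, the sites that differed went from 3 to 19 for Activin and DMSO, from 4 to 13 for SB and DMSO and from 6 to 11 for Activin and SB. At an adjusted p of 0.01 they were 0, 0 and 2, and with 500 bp on either side of the highest pileup they were 1, 2 and 2. The 93 calls of sites above input, over 3 treatments, became 58 at 0.01. The 6 calls of start windows above input, at 4 different windows, became 3 at 0.01, 2 with 500 bp on either side and 12 with 2 kb, and the 0 differences between treatments in start windows became 2 with all tags. The 11 calls of bins became 21 with all tags, 21 in bins of 500 bp, 4 at 0.01 and 23 with at least 12 tags required. The other alternatives (scaling, flank, fragment length, listed peaks of at least 13 tags and GC scaling) left these counts within 1.5 times, but not always the same sites. With tags extended to 300 bp, Tet1 site 5 and Jarid2 site 8 no longer differed between Activin and DMSO, while Dnmt1 site 3 did. For SB and DMSO, Dnmt1 site 5 and Jarid2 site 9 were lost, and Tet1 site 8 and Jarid2 site 22 were gained. For Activin and SB, Ezh2 site 3 was lost and Dnmt1 site 7 gained. Over the gene windows, all tags moved 3 of 27 ratios past their interval, all of Jarid2 (2.29, 2.63 and 2.61), GC content moved 2, of which Dnmt3a in DMSO went from 0.941 to 1.05, and leaving out the listed regions moved 10. The Dnmt3a ratios in all treatments and that of Dnmt3b in Activin changed side of 1 under at least 1 of these. Those gene-window alternatives were chosen after seeing the data. No paired analysis was possible because each treatment had 1 ChIP and 1 input library. Depth limits the weaker sites, such as Tet2 site 1, where Activin over SB had an interval from 1.58 to 438.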
